A study of Gallus gallus with 3 samples.

Results

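The muscle progenitors of the chicken foot at stage HH25 were the 107 cells that the deposited fine clustering placed in sub-cluster 6, out of 5982 cells at that stage and 17628 cells in the whole series. They made up 1.79% of the HH25 library (95% exact Clopper-Pearson interval 1.47% to 2.16%, counting error only). The same 107 cells, and no others, formed cluster 4 of the coarser deposited clustering. All deposited cells of sub-cluster 6 were used, and they were described against the other 5875 cells of the same library. The study named the 7 other sub-clusters mesenchyme (1), non-skeletal connective tissue (2), blood (3), chondrocytes (4), distal cells (5), apical ectodermal ridge (7) and skin (8).

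The study profiled single cells of the embryonic chicken hindlimb at stages HH25, HH29 and HH31 with 1 library a stage. The HH25 sample was the whole autopod, the distal foot region of the limb, and was captured with 10x v2 chemistry. The HH29 sample was digits 3 and 4 with the interdigit tissue beside them, captured by DropSeq in 3 technical replicates, and the HH31 sample was the tip of digit 4, captured with 10x v2. No genotype, strain or treatment is given for the embryos, and stage, dissection and platform cannot be told apart. Since cells of 1 library are not replicates and the sub-cluster was itself drawn from these genes, no test was made. Ratios are given with intervals that cover the error of counting molecules only, and these intervals are not adjusted for the number of genes.

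Skeletal muscle of the limb does not arise from limb mesenchyme. Its precursors detach from the somites, migrate into the bud under guidance from surrounding mesenchyme, proliferate there, and only then switch on the myogenic regulatory factors and the contractile genes. The transcription factors of these precursors are therefore largely distinct from those of the connective tissue and cartilage around them.

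The muscle cells held 263445 UMIs (unique molecular identifiers, each counted as 1 captured RNA molecule), against 13612239 in the other HH25 cells. A muscle cell had a median of 2185 UMIs and 863 genes, with 1109 to 7217 UMIs, against a median of 2040 UMIs and 809 genes in the other cells. The ridge sub-cluster 7 had only 24 cells and 57078 UMIs in all, so its low or absent levels of a gene rest on few or no UMIs. Over whole libraries, median UMIs per cell lay between 2043 and 2952. HH25 and HH31 shared 48 cell barcodes, 1 of them that of a muscle cell. Of the muscle cells, none held 1% or more haemoglobin UMIs, although 58 held at least 1. No doublet caller was run.

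The 4 markers given for these cells were all far above the rest of the foot. Levels are counts per 1000000 (CPM), for which all cells of a group were pooled and the UMIs of each gene scaled to the pooled total. Lbx3, a homeobox gene of the ladybird family, whose relative Lbx1 marks migrating limb muscle precursors in mouse, reached 175 CPM in the muscle cells. In the 7 other sub-clusters its level ran from 0 over a median of 0 to 4.91. MYF6, one of the myogenic regulatory factors, stood at 163 in the muscle cells, against 0 to 2.46 elsewhere with a median of 0. TCF15 (paraxis), a basic helix-loop-helix factor of the somite, stood at 410 in the muscle cells, against 0, 6.14 and 9.36 as lowest, median and highest of the other sub-clusters. FGFR4, the fibroblast growth factor (FGF) receptor known from muscle precursors, stood at 232 in the muscle cells, against 0, 1.87 and 14.2 elsewhere. No other sub-cluster overlapped the muscle cells in the level of any of these 4 genes. The log2 ratios of muscle to all other HH25 cells were 7.13 for Lbx3 (95% counting interval 6.30 to 8.02), 6.80 for MYF6 (6.0 to 7.64), 6.26 for TCF15 (5.81 to 6.71) and 5.95 for FGFR4 (5.39 to 6.52). All 4 markers given for the label were thus called higher, as a description, since the clustering had used the same expression data.

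In single cells the markers were sparse. A UMI of TCF15 was found in 61 of the 107 muscle cells (57.0%), of FGFR4 in 48 (44.9%), of Lbx3 in 34 (31.8%) and of MYF6 in 33 (30.8%). In the skin sub-cluster 8, which should lack all 4 and had a similar median depth of 2106.5 UMIs, the shares were 0.917% for TCF15, 2.29% for FGFR4 and 0 of 218 cells for both Lbx3 and MYF6. Counted together, 17 muscle cells had none of the 4 markers, 38 had 1, 24 had 2, 22 had 3 and 6 had all 4. Outside the sub-cluster, 152 of 5875 cells (2.59%) had a UMI of 1 marker, and none had 2 or more. With every cell thinned to 1000 UMIs, 57.9% of the muscle cells still showed at least 1 marker, against 1.14% of the other cells.

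**Figure D1:**
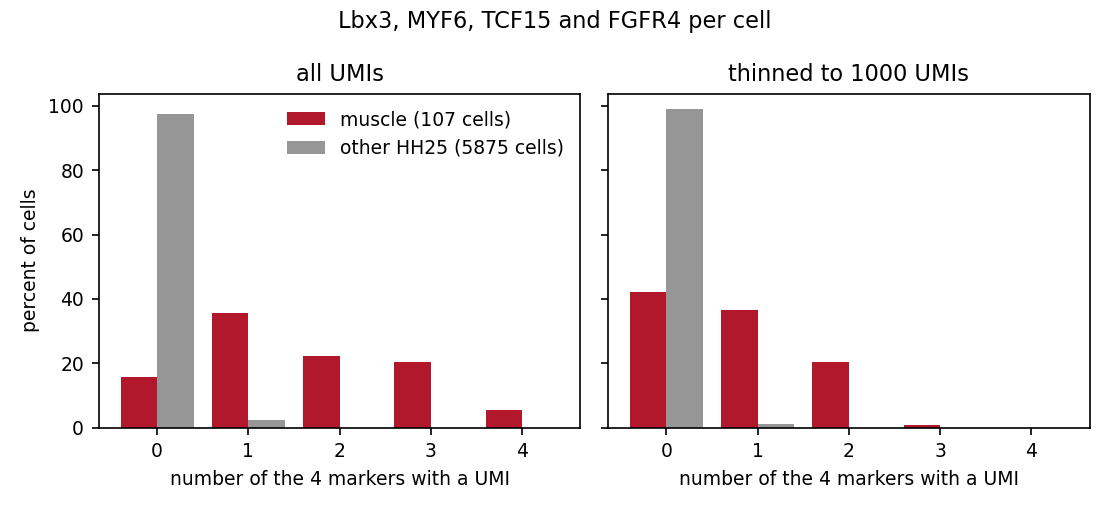
Percent of cells (vertical axis) with a UMI of 0 to 4 of the markers Lbx3, MYF6, TCF15 and FGFR4 (horizontal axis), in the 107 muscle cells (red) and the 5875 other HH25 cells (grey), at full depth on the left and thinned to 1000 UMIs per cell on the right. At both depths no grey bar stands at 2 or more markers.

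The 17 muscle cells without any of the 4 markers were shallower, with a median of 1546 UMIs against 2245.5 in the other muscle cells. Of these, 16 held at least 1 of the 20 named genes with the highest lower bounds of the ratio. Over all muscle cells the median number of these 20 genes per cell was 6, with a range of 0 to 15. In the other HH25 cells the median was 0 and the highest was 8. At least 5 of the 20 genes were found in 82 of 107 muscle cells and in 4 of 5875 other cells. A single muscle cell had none of the 20. The 20 genes were picked for their high ratio in these same 107 cells. These counts therefore describe the sub-cluster and are no test of which cells belong to it.

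Across the transcriptome, 244 of 7280 measured genes (3.35%) were called higher in the muscle cells and 259 (3.56%) lower, where a gene counts as measured with at least 50 UMIs over the HH25 table and as called with a log2 ratio of at least 1 in size and a counting interval that leaves out 0. A gene with 0 UMIs in the muscle cells was called lower on its interval alone, and of 63 such genes 38 had a bound, set with 3 UMIs over the group, that fell short of 1 in size. Without them 221 genes were lower. The median log2 ratio of the measured genes with a UMI in the muscle cells was 0.04. Names were available for 2822 of the measured genes, all of them from lists of markers and co-expressed genes made on this series. Of the named genes 103 (3.65%) were called higher and 188 (6.66%) lower, and counts within gene lists are to be read against these shares. The lists, like the cell group, were drawn up with results of these data known. PAX3, PAX7, LBX1, MYF5, MYOD1 and MYOG are not analysed here.

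Of 22 listed transcription factors of limb muscle precursors only 11 had a name that could be matched, and all 11 were measured. Of these 8 were called higher and none lower, with a median log2 ratio of 2.22. The 8 include Lbx3 and TCF15, which are also markers given for these cells. The somitic homeobox gene MEOX1 reached 87.3 in the muscle cells, against 0 to 13.5 elsewhere (log2 ratio 3.53, 2.81 to 4.19). Its relative MEOX2, needed for limb muscle in mouse, was less set apart. MEOX2 stood at 56.9 in the muscle cells and reached 117 in the connective tissue sub-cluster 2, with a log2 ratio of 1.77 (0.91 to 2.52) over all other cells.

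The EYA proteins are transcriptional cofactors that act upstream of the myogenic factors. EYA1 stood at 72.1 in the muscle cells, against 0, 3.68 and 7.17 as lowest, median and highest elsewhere (log2 ratio 4.01, 3.18 to 4.77). EYA4 stood at 49.3 in the muscle cells and at most at 13.5 elsewhere (2.22, 1.28 to 3.04). DACH1, DACH2 and SOX8 were not called, with log2 ratios of -0.57, 0.02 and 0.39.

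**Figure D2:**
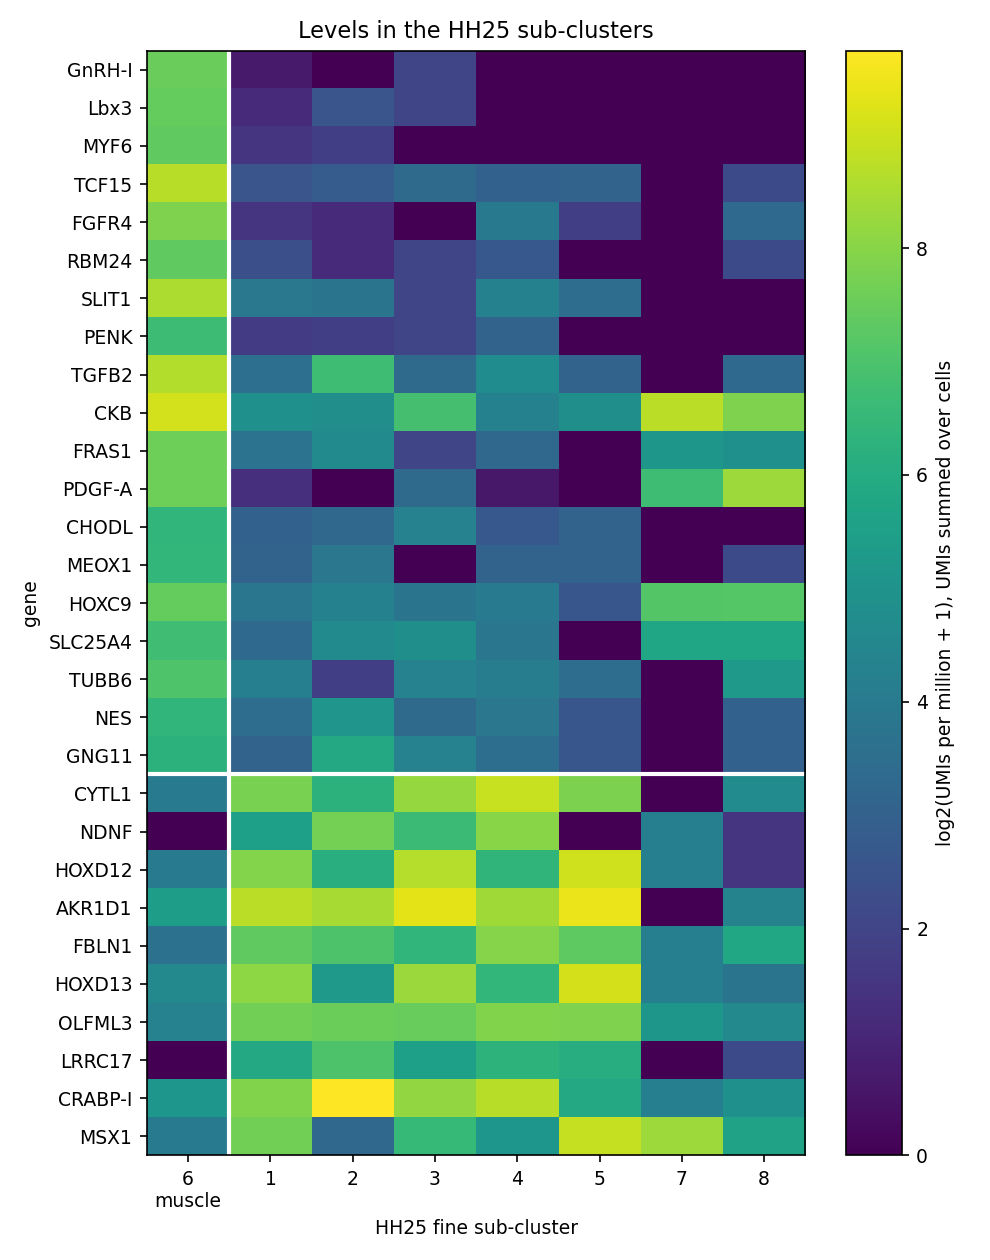
Level of 19 of the 20 named genes with the highest lower bound of the ratio (above the white line) and the 10 with the lowest upper bound (below it) in the muscle sub-cluster 6 (left column) and the 7 other HH25 sub-clusters; colour gives log2 of CPM plus 1. CKB, PDGF-A and HOXC9 are also bright in sub-clusters 7 and 8, whereas GnRH-I, Lbx3 and MYF6 are dark outside the muscle cells.

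The receptors for FGF ran in opposite directions. FGFR4, given above, was the 1 of 8 measured FGF receptor and feedback genes called higher, while 3 were called lower. FGFR1, the main receptor of limb mesenchyme, stood at 22.8 in the muscle cells, against 17.5, 78.0 and 168 as lowest, median and highest elsewhere (log2 ratio -2.55, -4.00 to -1.43). FGFR2 had 1 UMI in the muscle cells and 338 in the others (log2 ratio -2.71, -8.02 to -0.22), and its highest level was 303 in skin. Its level of 3.80 in the muscle cells compares with 3.68 in the connective tissue sub-cluster 2 and 11.1 in the mesenchymal sub-cluster 1. DUSP6, a phosphatase induced by FGF signalling that dampens it, had 0 UMIs in the muscle cells against 328 in the others, and 3 UMIs over the group would put its log2 ratio at -1.08. ETV5, a transcription factor target of the same pathway, was not called (0.46, -0.20 to 1.06). Per-cell detection gave the same order for the 2 main receptors, with FGFR4 in 44.9% of muscle cells against 0.416% of cells of the mesenchymal sub-cluster 1, and FGFR1 in 5.61% of muscle cells against 26.1%.

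Genes of migration, guidance and adhesion were mixed, with 7 of 14 measured members called higher and 2 lower and a median log2 ratio of 1.13. SLIT1, a secreted ligand of Robo receptors, stood at 368 in the muscle cells, against 0, 10.1 and 18.6 as lowest, median and highest elsewhere (4.77, 4.40 to 5.13). Its relatives differed from it. SLIT2 stood at 45.6 in the muscle cells and reached 73.0 in the distal sub-cluster 5 (1.39, 0.42 to 2.23), and SLIT3 had 1 UMI in the muscle cells against 629 in the others (-3.61, -8.91 to -1.12). CXCR4, the chemokine receptor of migrating muscle precursors, rested on 11 UMIs in 11 muscle cells, against 42 UMIs in all other cells (3.76, 2.65 to 4.74). CXCR4 stood at 41.8 in the muscle cells, against 0 to 20.9 elsewhere, the highest in the connective tissue sub-cluster 2. ACKR3, the second receptor for the same chemokine, stood at 87.3 in the muscle cells, against 0 to 47.6 elsewhere (2.35, 1.66 to 2.97).

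The basement membrane proteins FRAS1 and FREM1, which act in one complex, were both called higher. FRAS1 stood at 190 in the muscle cells, against 0, 12.1 and 35.0 as lowest, median and highest elsewhere (3.92, 3.43 to 4.38). FREM1 stood at 72.1 in the muscle cells, against at most 26.3 elsewhere (2.74, 1.97 to 3.43). NELL2, a secreted glycoprotein of neural guidance, had a log2 ratio of 2.58 (1.92 to 3.18). CDH11, a cadherin of mesenchyme, was called lower at 45.6 in the muscle cells, against 0, 242 and 410 as lowest, median and highest elsewhere (-2.53, -3.48 to -1.72). NCAM1 stayed below the call at 0.86 (0.33 to 1.35).

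Of the secreted signals, 5 of 10 measured members were called higher and 3 lower. GnRH-I, the gene named for the precursor of gonadotropin-releasing hormone, stood at 182 in the muscle cells, against 0, 0 and 3.12 as lowest, median and highest elsewhere (8.47, 7.32 to 9.86). It had 48 UMIs in 35 muscle cells against 7 UMIs in all other HH25 cells. PENK, the precursor of enkephalin peptides, stood at 102 in the muscle cells, against at most 7.66 elsewhere (5.16, 4.40 to 5.91), and 17 muscle cells held all of its 27 muscle UMIs. TGFB2, a transforming growth factor beta ligand, stood at 391 in the muscle cells, against 0 to 103 elsewhere, the highest in connective tissue (4.43, 4.08 to 4.77). METRN, a secreted neurotrophic factor, had a log2 ratio of 2.44 (1.84 to 2.98).

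PDGF-A, the platelet-derived growth factor ligand, stood at 194 in the muscle cells but was higher still in skin at 317, while its median over the other sub-clusters was 1.56. Its log2 ratio was 3.71 (3.23 to 4.15) over all other cells and 6.96 over the mesenchymal sub-cluster 1. The gene of its receptor, PDGFRA, had 0 UMIs in the muscle cells against 100 in the others, too few to set a fold. WNT5A, PTN and BMP4 were called lower. WNT5A stood at 102 in the muscle cells, against 337, 475 and 1187 as lowest, median and highest elsewhere (-2.54, -3.14 to -2.0). PTN had 4 UMIs in the muscle cells against 1421 in the others (-2.78, -4.66 to -1.42). Its level was 15.2 CPM in the muscle cells, against 496 in the chondrocyte sub-cluster 4 and 50.4 in the mesenchymal sub-cluster 1. In the connective tissue sub-cluster 2, the distal sub-cluster 5 and skin, PTN was below the muscle cells at 13.5, 5.03 and 3.59. BMP4 had 0 UMIs in the muscle cells against 294 in the others, with a bound of -0.92 that falls short of the size of a call. Without BMP4, 2 of the 10 were lower. BMPR1B, a bone morphogenetic protein receptor, was the 1 of 5 members called in its list (2.35, 1.09 to 3.4), on 8 UMIs in the muscle cells. Its level was 30.4 CPM in the muscle cells, against 23.0 in the chondrocyte sub-cluster 4. In the Notch list LFNG, a glycosyltransferase that modifies Notch, was the 1 of 4 called, on 8 UMIs in the muscle cells (2.58, 1.31 to 3.64), with 61.0 CPM in skin against 30.4 in the muscle cells.

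Genes of muscle differentiation were partly called. RBM24, an RNA-binding protein that controls muscle splicing, stood at 163 in the muscle cells, against 0, 3.12 and 5.47 as lowest, median and highest elsewhere (5.36, 4.75 to 5.97). MEF2A, a cofactor of the myogenic factors, stood at 45.6 in the muscle cells, against 3.12 to 35.9 elsewhere, the highest in skin (1.72, 0.74 to 2.56). Id1, an inhibitor of such factors, was lower at 251 in the muscle cells, against 263 to 1542 elsewhere with a median of 697 (-1.61, -1.98 to -1.26). Of 38 listed contractile and sarcomere genes only 7 had a name that could be matched, and all 7 were measured. Of these 3 were called higher, with a list median of 0.07. CKB, the brain-type creatine kinase, stood at 539 in the muscle cells, against 18.6, 28.3 and 420 as lowest, median and highest elsewhere, the highest in the apical ectodermal ridge sub-cluster 7 (3.79, 3.52 to 4.06). The myosin light chain MYL4 reached 68.3 in the muscle cells, against 60.4 in sub-cluster 5 (1.48, 0.71 to 2.16). The cofilin gene CFL2 stood at 137 in the muscle cells, against 0 to 90.5 elsewhere (1.36, 0.83 to 1.84). The tropomyosins TPM1, TPM2 and TPM3 were not called, with log2 ratios of -0.43, -0.04 and -0.15. Actin, troponin and myosin heavy chain genes are not analysed here.

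The remaining genes of the 20 were CHODL, HOXC9, SLC25A4, TUBB6, NES and GNG11. CHODL, a lectin-like membrane protein, stood at 83.5 in the muscle cells, against 0 to 18.7 elsewhere (3.58, 2.84 to 4.26). SLC25A4, the mitochondrial ADP/ATP carrier of muscle, stood at 106, against 0 to 52.6 elsewhere (3.06, 2.43 to 3.65), while its relatives SLC25A5 and SLC25A6 were not called. TUBB6, a beta-tubulin, was at 2.98 (2.42 to 3.49), with 133 CPM in the muscle cells and at most 37.7 elsewhere. NES, the intermediate filament protein nestin, was at 2.83 (2.11 to 3.48), with 83.5 CPM against at most 33.2. GNG11, a G protein subunit, was at 2.77 (2.01 to 3.44). It was less set apart, with 75.9 CPM in the muscle cells against 57.7 in the connective tissue sub-cluster 2.

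The Hox genes, which mark position along the body and limb axes, were divided. Of 12 measured Hox genes 3 were called higher and 5 lower. The 3 higher ones all belong to the HOXC cluster. HOXC9 stood at 171 in the muscle cells, with 5.03, 15.3 and 142 as lowest, median and highest elsewhere, the highest in skin (3.14, 2.65 to 3.60). HOXC10 stood at 216 in the muscle cells, against 34.3 to 85.5 elsewhere (1.95, 1.53 to 2.34). HOXC8 rested on 11 muscle UMIs and stood at 41.8 in the muscle cells (3.27, 2.19 to 4.21). Its level was 21.5 in skin and 52.6 in the ridge sub-cluster 7, the latter on too few UMIs to rank it against the muscle cells. HOXC11 was not called (0.28, -0.46 to 0.93). A UMI of HOXC9 was held by 29.9% of muscle cells, against 2.88% of cells of the mesenchymal sub-cluster 1 and 25.2% of skin cells.

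The distal HOXD genes, which pattern the digits, were all low in the muscle cells. HOXD12 had 4 UMIs in the muscle cells against 2901 in the others (-3.81, -5.69 to -2.45), HOXD13 had 6 against 3127 (-3.33, -4.78 to -2.21), and HOXD11 had 2 against 1119 (-3.44, -6.48 to -1.58). The share of cells with a UMI of HOXD13 was 3.74% in muscle, against 3.21% in skin and 32.6% in the mesenchymal sub-cluster 1. It was also low in the connective tissue sub-cluster 2 at 6.39% and in the chondrocyte sub-cluster 4 at 9.95%. HOXA13, their counterpart in the HOXA cluster, stood at 60.7 in the muscle cells, against 0, 120 and 541 as lowest, median and highest elsewhere (-1.77, -2.58 to -1.07). HOXA11 ran the other way without reaching the call. It stood at 383 in the muscle cells, against 302 in the distal sub-cluster 5, the next highest (0.70, 0.40 to 0.99), and was found in 54 of 107 muscle cells (50.5%), against 38.7% of cells of the mesenchymal sub-cluster 1, 53.3% of the distal sub-cluster 5 and 1.38% of skin cells. HOXA9 was level (-0.19, -0.56 to 0.17), and HOXA6 was called lower (-1.29, -2.10 to -0.59).

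**Figure D3:**
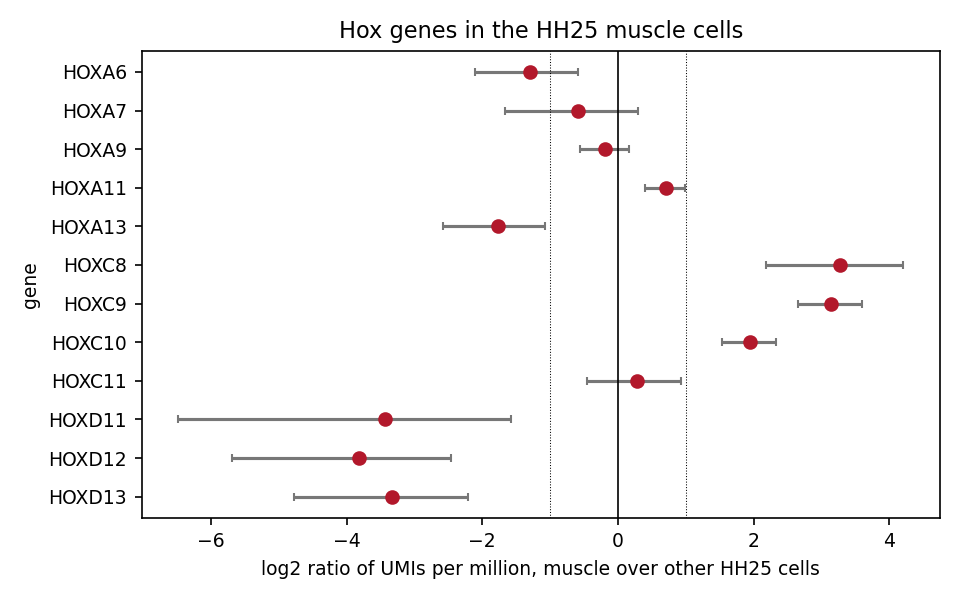
Log2 ratio of CPM, muscle over other HH25 cells (horizontal axis), for the 12 measured Hox genes in order of cluster and number; bars are 95% counting intervals, dotted lines mark the size of a call at 1 and -1. HOXC8, HOXC9 and HOXC10 lie right of the dotted line, HOXD11, HOXD12, HOXD13, HOXA13 and HOXA6 left of it.

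The 10 named genes with the lowest upper bounds were mostly genes of limb mesenchyme and its matrix. CYTL1, a secreted protein of cartilage progenitors, stood at 15.2 in the muscle cells, against 0, 217 and 482 as lowest, median and highest elsewhere (-3.97, -5.84 to -2.61). NDNF and LRRC17, both secreted, had 0 UMIs in the muscle cells against 1096 and 845 in the others, and 3 UMIs over the group would put their log2 ratios at -2.82 and -2.45. AKR1D1, a steroid reductase, was at -3.26 (-4.26 to -2.41), the matrix protein FBLN1 at -3.86 on 3 muscle UMIs (-6.14 to -2.31), OLFML3 at -3.40, CRABP-I, a retinoic acid binding protein, at -3.05, and the homeobox gene MSX1 at -3.46. HOXD12 and HOXD13, given above, complete the 10. The muscle cells were not always the lowest. MSX1 stood at 15.2 in them, against 8.60 in the connective tissue sub-cluster 2, 33.9 in the chondrocyte sub-cluster 4 and 475 in the distal sub-cluster 5. NDNF was at 0 in the distal sub-cluster 5 also.

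Over the list of limb mesenchyme markers, none of 18 measured members was called higher and 11 were called lower, with a median log2 ratio of -2.08. Their summed level was 991 CPM in the muscle cells, against 886 to 3899 in the other sub-clusters. Not every member was low, since SNAI1 was at 0.25 and COL1A2, a fibrillar collagen gene, at -0.48. PRRX1, the paired-related homeobox gene of limb mesenchyme, kept 32 UMIs in 16 muscle cells, of which 20 lay in 5 cells with 3 UMIs or more. Its share of 14.95% in the muscle cells compares with 69.8% in the mesenchymal sub-cluster 1 and 2.29% in skin. Of the 16 cells, 12 also held at least 1 of the 4 muscle markers. The summed level of the other 17 mesenchyme markers was 1358 in the muscle cells with PRRX1, 767 in those without, and 2414 in the other HH25 cells.

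No measured marker of another tissue was called higher in the muscle cells, and the summed levels lay within the range of the other sub-clusters in every list with measured genes; their part in the results above was not tested. None of the 10 measured cartilage markers was called higher and 3 were called lower (2 without COL9A1, whose bound at 3 UMIs was -0.88), with summed levels of 262 in the muscle cells, against 161, 263 and 1280 as lowest, median and highest elsewhere; SOX5, SOX6, COL9A1, COL9A3 and COL11A1 were at 0. Of 9 measured ectoderm markers 3 were lower (1 without WNT6 and CLDN1, with bounds of -0.93 and -0.51), with a sum of 72.1 in the muscle cells, against 30.2, 67.8 and 4520 elsewhere, and FGF8, WNT6, CLDN1 and CLDN3 were at 0. The 4 haemoglobin genes summed to 307 in the muscle cells, against 216 to 17216 elsewhere. The connective tissue list had 3 of 8 lower and none higher, with 273 in the muscle cells, against 206 to 1638 elsewhere. The endothelial and smooth muscle list had only 1 measured gene, with 0 UMIs in the muscle cells, and the neural list had 3. None of these was called higher, and FABP7 was the 1 called lower (-1.80, -2.71 to -1.02). The leukocyte list had 0 measured genes, so no call could be made in it. The leukocyte genes CD74 and GILT, below the minimum to be measured, had 0 UMIs in the muscle cells.

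Cell cycle measures of the muscle cells lay close to those of the other cells. Their median deposited S score was 0.385 (quartiles 0.233 and 0.577), against 0.43 in the other cells, and their median G2M score was 0.638 (0.328 and 0.839), against 0.605. The G2M score exceeded the S score in 72 of 107 muscle cells (67.3%, 57.5% to 76.0%), against 61.1% of the other cells. None of 16 DNA replication genes and none of 23 mitosis genes was called in either direction. Summed over the list, the log2 ratio was -0.09 (-0.22 to 0.03) for DNA replication and 0.14 (0.04 to 0.23) for mitosis. Of 5 measured genes of cell cycle entry and exit, CDK6 was called higher, at 270 in the muscle cells against 87.6 to 140 elsewhere (1.21, 0.85 to 1.55), while CCND1 and CDKN1B were at -0.56 and -0.62.

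Genes of ribosome assembly and translation leaned higher, with a median log2 ratio of 0.53 over 21 measured members. The most abundant members NPM1, EEF1B2 and NCL were closer to level, with log2 ratios of 0.02, -0.14 and 0.25. The summed level of the list was 12708 in the muscle cells, above the 8524 to 11106 of every other sub-cluster. Its log2 ratio over all other cells was 0.23 (0.18 to 0.28), and 2 of the 21 members were called. NPM3, a histone chaperone of the nucleolus, stood at 349 in the muscle cells, against 19.1, 75.3 and 280 as lowest, median and highest elsewhere (1.94, 1.61 to 2.24), and LYAR, a nucleolar protein, at 437 against 70.1 to 184 (1.46, 1.18 to 1.73). NOP16, NOL9 and EIF3J lay just under the call at 0.98, 0.95 and 0.84. Ribosomal protein genes themselves took 33.3% of muscle UMIs against 35.6% of those of the other cells. In the energy list of 13 genes, CKB and SLC25A4 were the 2 called, and GAPDH was at -0.07.

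Variation among the muscle cells was described after thinning each to 1000 UMIs. Of the genes with at least 20 thinned UMIs, 3 stood out by the ratio of variance to mean, against a median of 1.04 over 682 genes. These were Wpkci-8 at 2.81, HIST1H103, a histone gene, at 2.77 and TMSB4X, an actin-binding thymosin, at 2.74. Among the 20 highest genes CKB had the highest ratio, 1.61, followed by TGFB2 at 1.49 and GnRH-I at 1.43, while TCF15 was at 1.13, SLIT1 at 1.09 and FGFR4 at 1.04. Of the 190 pairs of the 20 genes, 32 had at least 5 cells expected with both genes under independence. In these pairs the ratio of observed to expected cells ran from 0.364 over a median of 0.988 to 1.46. Of the other pairs, 28 pairs were never found together at this depth. At the other end, RBM24 and PENK shared 4 cells against 0.82 expected, the highest ratio of all pairs at 4.86. RBM24 and CKB shared 8 cells against 3.29 expected, whereas RBM24 and SLIT1 shared 0 cells against 3.29 expected. These ratios rest on few cells and were not tested.

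**Figure D4:**
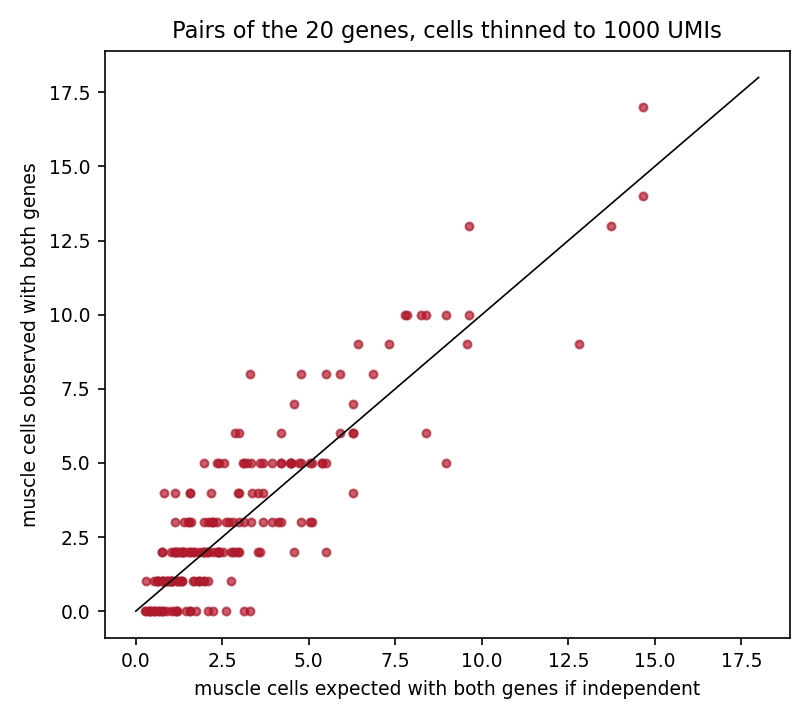
Muscle cells in which both genes of a pair had a UMI (vertical axis) against the number expected if the genes were independent (horizontal axis), for the 190 pairs of the 20 highest genes in the 107 muscle cells thinned to 1000 UMIs; the line marks equality. Pairs with at least 5 expected cells scatter on both sides of the line, with a median ratio of 0.988.

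Wpkci-8 lies on the W chromosome, which in birds only females carry. No UMI of it was found in 32 of 107 muscle cells (29.9%, 21.4% to 39.5%), against 45.7% of the other cells, and the remaining muscle cells had a median of 10 UMIs. The pattern of the 20 genes was then read in both sets of cells, a split chosen after the data were seen. All 20 genes were called higher within the cells with Wpkci-8 and 19 within those without. The exception was GNG11, with 3 UMIs in the muscle cells without Wpkci-8 (1.95, -0.37 to 3.56). RBM24 was at 64.2 on 5 UMIs in muscle cells without Wpkci-8 and at 205 on 38 UMIs in those with it. PENK differed the same way, at 38.5 without and 129 with it, and CHODL the other way, at 167 and 48.5. These differences were not tested.

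HH29 offered muscle cells that the HH25 clustering had not used, although these too had been gathered by clustering. The HH29 muscle sub-cluster 11 had 106 cells, with 33, 37 and 36 from the 3 technical replicates, and a median of 3980 UMIs per cell. Of 10025 measured HH29 genes, 340 (3.39%) were called higher in its muscle cells and 795 (7.93%) lower, and of the 3099 named ones 108 (3.48%) and 434 (14%). Of the 20 genes above, 19 could be followed, Lbx3 being not analysed here, and 18 were called higher at HH29 also. All 10 genes at the low end were called lower at HH29. The values of the 2 stages stand side by side, each against its own library, and differences between them carry those of stage, dissection and platform together.

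**Figure D5:**
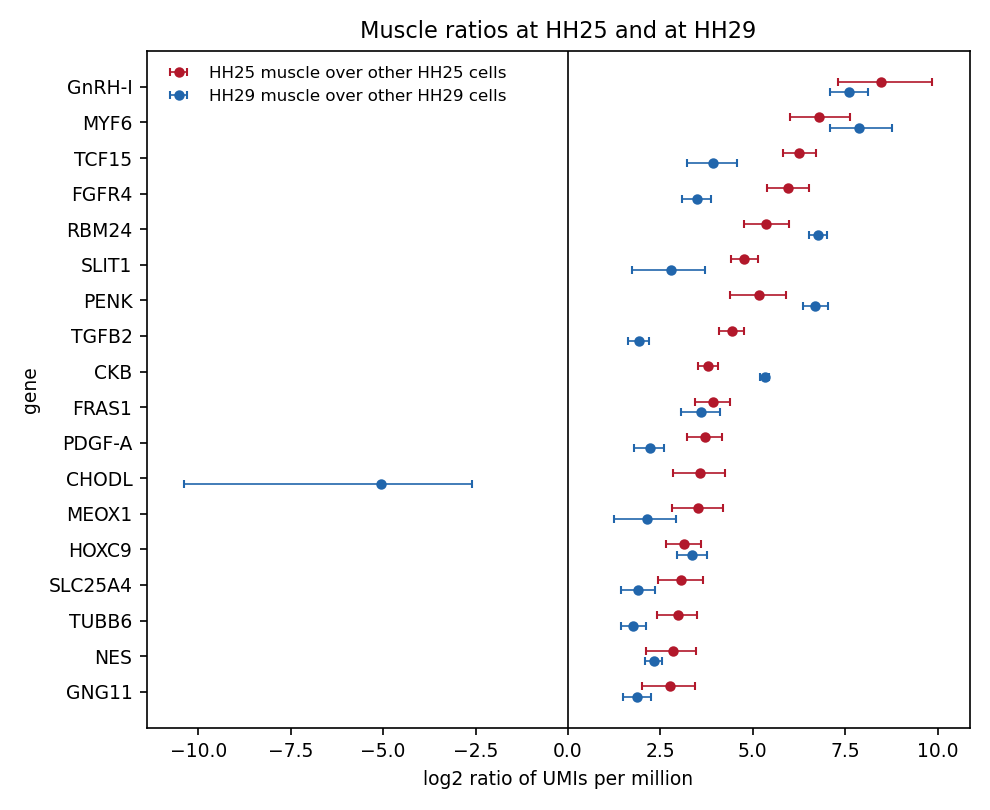
Log2 ratio of CPM, muscle over the other cells of the same library (horizontal axis), for 18 of the 20 highest HH25 genes, at HH25 (red) and at HH29 (blue); bars are 95% counting intervals. All genes but CHODL lie right of 0 at both stages, and CHODL lies right of 0 at HH25 and left of it at HH29.

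MYF6, TCF15, FGFR4 and SLIT1 were called higher at both stages. MYF6 was at 6.80 at HH25 and 7.88 (7.09 to 8.76) at HH29. TCF15 stood at 410 CPM in HH25 muscle cells and at 28.3, 32.7 and 109 in the 3 technical replicates of HH29, with ratios of 6.26 at HH25 and 3.92 (3.23 to 4.57) at HH29. FGFR4 was at 5.95 at HH25 and 3.49 (3.09 to 3.86) at HH29. SLIT1 stood at 368 in HH25 muscle cells and at 34.0, 19.6 and 13.6 in the HH29 replicates (ratios 4.77 and 2.79).

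RBM24, CKB and MYL4 had larger ratios at HH29 than at HH25, differences that were not tested. RBM24 was at 5.36 at HH25 and 6.76 (6.52 to 7.0) at HH29. It stood at 163 CPM in HH25 muscle cells and at 821, 857 and 1205 in the HH29 replicates. A UMI of RBM24 was found in 19.6% of muscle cells at HH25 and 69.8% at HH29. The median depths of 2185 and 3980 UMIs were not evened out for these shares. CKB stood at 539 CPM at HH25 and at 1573, 1871 and 2777 in the HH29 replicates (ratios 3.79 and 5.32). MYL4 was at 1.48 at HH25 and 3.97 (3.71 to 4.21) at HH29. PENK, outside that group of genes, was at 5.16 at HH25 and 6.69 at HH29, and GnRH-I at 8.47 and 7.59. HOXC9 held a similar ratio, 3.14 at HH25 and 3.36 at HH29, whereas HOXC10 was called at HH25 alone (1.95 at HH25, 0.65 at HH29). NELL2, METRN, BMPR1B, LYAR, CDK6, LFNG, MEF2A and HOXC8 likewise were called at HH25 and not at HH29, a difference that was not tested. A ratio also depends on the level in the other cells. MEF2A stood at 45.6 CPM in muscle cells at HH25 and 162 at HH29, and at 13.8 and 120 in the other cells. HOXC10 (216 and 185), CDK6 (270 and 258), LFNG (30.4 and 27.3) and BMPR1B (30.4 and 37.8) had close muscle levels at both stages. LYAR (437 and 269), NELL2 (94.9 and 12.6), METRN (114 and 10.5) and HOXC8 (41.8 and 10.5) differed more, with the lower level at HH29. METRN had 5 muscle UMIs there (1.42, -0.24 to 2.69).

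At HH31 no muscle sub-cluster was named. Of the 4 markers TCF15 and FGFR4 could be followed there. TCF15 had 65 UMIs in 57 of 4823 cells and FGFR4 had 196 UMIs in 167 cells, and 4 cells held both. The other 216 cells with a marker held 1 of them.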

How the data were processed

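Each deposited table gives unnormalised counts of UMIs, which the authors obtained with Cell Ranger 2 or the DropSeq pipeline against the chicken Ensembl annotation; deposited S and G2M values per cell are fractions, their deposited difference is a score, and cluster numbers are the authors' own, from Louvain clustering in Seurat after correction for library size, mitochondrial share and cell cycle difference. The methods state filters on UMI number and on mitochondrial and ribosomal share. The deposited cells were used as they are. The HH25 library totalled 13875684 UMIs, the HH29 library 24108511 and the HH31 library 13373746.

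Counts were summed over cells of a group, divided by the group total and given per 1000000. Ratios carry exact 95% intervals for 2 Poisson sums, shares exact Clopper-Pearson intervals, and both cover counting error only. Where the muscle cells held 0 UMIs, a floor of 3 UMIs over the group bounds the ratio. Names came from the study's marker and module tables (2997 of 9073 HH25 genes). Named genes were the 4 markers, the 20 genes with the highest lower bound of the ratio among measured genes with at least 20 muscle UMIs, the 10 with the lowest upper bound, and called or abundant members of the gene lists; other genes are given as chosen after their values were seen. Results of some genes are not reported here, although they count in the totals. Members and lists were chosen with earlier results of these data known. No column of another sample was used. The interval code was tested on simulated data. Alternatives included the stated filters other than the ribosomal limit, which was not applied (at most 4 times the mean UMI number, at least 20% of the median, at most 10% mitochondrial UMIs over 12 named genes). Of the deposited HH25 cells 194 failed them, 7 of these muscle cells. Further alternatives were other scalings, thinning, other reference cells and gene minimums. Python 3.11.15, numpy 2.4.6, scipy 1.17.1, pandas 2.3.3 and matplotlib 3.10.9 were used.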

Additional observations from a re-analysis of the deposited data

Results flagged for a closer look

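CHODL was called in opposite directions in the muscle cells of the 2 stages. At HH25 it had 22 UMIs in the muscle cells against 95 in the others, a log2 ratio of 3.58 (2.84 to 4.26), and 14 of 107 muscle cells held a UMI. At HH29 it had 1 UMI in the muscle cells against 1667 in the others, a log2 ratio of -5.07 (-10.38 to -2.59), with 70.5 CPM in the other HH29 cells. The level in the other cells thus differed too, being 6.98 CPM at HH25. The difference between the stages was not tested, and stage, dissection and platform cannot be told apart.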

How the results depend on the processing

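All 20 of the highest genes were called higher under the stated filters without the ribosomal limit, the other scalings, the mean over cells, thinning, the mesenchymal reference and without cells of 1% or more haemoglobin UMIs. The counts of 244 higher and 259 lower genes changed by over 1.5 times as follows. Thinning to 1000 UMIs left 130 lower genes, a minimum of 200 UMIs left 137 higher genes and 8 of the 20, and a log2 ratio of at least 2 left 66 higher and 169 lower genes. Among cells without Wpkci-8, a setting added after the data were seen, 83 genes were lower. By construction these settings hold fewer UMIs, fewer genes, a larger fold or fewer cells. With genes at 0 muscle UMIs called only where their bound reached the call, also added after the data were seen, 221 genes were lower, a change of less than 1.5 times. Of all calls 48.5% were higher, against 44.6% and 45.4% under the 2 other scalings. HBE turned to 0.078, from a log2 ratio of -1.88, without cells of 1% or more haemoglobin UMIs. At least 1 marker was found in 84.1% of muscle cells at full depth, 57.9% at 1000 UMIs and 73.2% at 1500 UMIs. Outside the sub-cluster, 152 cells had 1 or more markers and 7 had at least 2 UMIs of the 4 together. Leaving out each HH29 technical replicate in turn gave 18 genes called higher each time, of the 19 that could be followed at HH29. No paired analysis was possible because each stage had 1 library. A gene with few muscle UMIs, such as CXCR4, HOXC8, LFNG and BMPR1B with 8 to 11, is limited by depth, and a call that misses the threshold does not show equal levels.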

Other observations

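The muscle cells with a UMI of RBM24 were compared with the rest, a split chosen after the values were seen. The 21 cells with RBM24 had a median depth of 2122 UMIs, against 2189.5 in the 86 without. CKB stood at 1096 CPM in the cells with RBM24, against 377 in those without (log2 ratio 1.54, 1.04 to 2.03), and PENK at 236 against 63.7 (1.89, 0.69 to 3.10). In the other direction, HIST1H103 stood at 455 in the cells with RBM24, against 1293 in those without (-1.51, -2.14 to -0.93), the DNA replication list was at -0.68 (-1.04 to -0.34), and HOXC9 was at -2.02 (-4.36 to -0.38) on 3 UMIs in the cells with RBM24. The limb mesenchyme list stood at 1231 CPM in the cells with RBM24, against 921 in those without (0.42, 0.01 to 0.82), and its part in these differences was not tested. The mitosis list was level (0.10, -0.13 to 0.33), as was TCF15 (-0.02, -0.74 to 0.64). MYF6 was at -0.35 (-1.67 to 0.79) and Lbx3 at 0.11 (-1.01 to 1.12). The intervals of this split cover counting error only. HIST1H103 and CKB also varied between muscle cells beyond it, with the ratios of variance to mean of 2.77 and 1.61 given above.

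The gene ENSGALG00000006216, to which the tables used here give no name, fell short of the minimum for measured genes at HH25, with 35 UMIs in 16 muscle cells and 3 in the other cells (log2 ratio 9.24, 7.57 to 11.58). Of the 35 UMIs, 24 were in cells with RBM24. At HH29 it had 603 UMIs in the muscle cells against 46 in the others (9.34, 8.91 to 9.81).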
